A study of Mus musculus with 4 samples.

Results

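Chromatin accessibility of 6 genes that mark neurogliaform cells and related Lamp5 interneurons was described in single nuclei of mouse cortex and hippocampus. The genes are Lamp5, Ndnf, Reln, Id2, Rnase10 and Pax4, 6 of the 21701 protein-coding genes of the annotation. Lamp5, Ndnf, Reln and Id2 were taken as known markers, whereas Rnase10 and Pax4 were chosen by their values in these nuclei, as they had been seen among the leading genes of nucleus groups. High Rnase10 or Pax4 in such a group is therefore a description and not a finding. Lhx6 and Adarb2 were added as partner genes. All nuclei came from mice of the genotype Dlx6aCre;Sun1/sfGFP at postnatal day 30 (P30), with 2 libraries from cortex and 2 from hippocampus. Both groups carried both alleles: a Cre recombinase that marks inhibitory neurons of the forebrain, and a fluorescent protein of the nuclear envelope that Cre switches on. DAPI- and GFP-positive nuclei were sorted, so the libraries hold nuclei that passed this sort rather than whole tissue. The sort did not leave neurons only, as some clusters had open oligodendrocyte-lineage genes (below). The labels give no number or sex of the animals and do not say whether libraries of a region came from separate animals, so that p-values measure the spread between these libraries, which may be technical.

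Neurogliaform cells are inhibitory interneurons with a dense local axon that release GABA into the surrounding volume, and most of those in the neocortex descend from the caudal ganglionic eminence. In the hippocampus, the related ivy cells and part of the neurogliaform cells descend from the medial ganglionic eminence. Lhx6, a LIM homeodomain transcription factor, marks the medial lineage, and Adarb2, an RNA-binding protein of the adenosine deaminase family, marks the caudal one. In an assay of transposase-accessible chromatin, a cut site in a peak reports that the DNA there was open in that nucleus, which is not the same as transcription of the gene.

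The 4 libraries held 2355 and 4191 nuclei from cortex and 5576 and 3184 from hippocampus, in the order replicate 1, replicate 2. Values per library below follow this order, cortex first. Cut sites in peaks numbered 117290059 and 32005984 for cortex and 72384520 and 47934269 for hippocampus, and peaks, called in each library separately, covered 97.6, 33.4, 101.4 and 62.1 Mb. The median nucleus held 47236 and 7352 cut sites in cortex and 12685.5 and 14917 in hippocampus, so the cortex libraries were the deepest and the shallowest. Cell barcodes occurring in more than 1 library numbered 136. In nucleus clusters of at least 30 nuclei, the summed level of 8 genes shared by GABA neurons ranged from 289 to 1586 CPM (cut sites per 1000000 of those nuclei), with none of the 8 at 0 in any cluster. The cluster of each library with the most open oligodendrocyte-lineage genes had them at a mean log2 ratio over the rest of 1.50, 0.47, 1.58 and 2.72, so that such nuclei stood out least in cortex replicate 2.

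Each gene was measured as the cut sites in those peaks of a library that touched the gene or the 2 kb before its start, as counts per 1000000 cut sites of the library (CPM). The 6 genes differ in how much of this window was open and where. Rnase10 (ENSMUSG00000021872, chromosome 14, 51007751 to 51010758, plus strand, GRCm38), which encodes a secreted member of the ribonuclease A family without known ribonuclease activity, had a single region with a peak in all 4 libraries, 0.693 kb from the gene start (51007796 to 51009093) and overlapping a coding exon. Pax4 (ENSMUSG00000029706, chromosome 6, 28442334 to 28449353, minus strand), a paired homeodomain factor known from pancreatic islet development, also had a single region, in an intron 1.197 kb from the start (28447824 to 28448489). Lamp5 (ENSMUSG00000027270, chromosome 2, 136052239 to 136069917, plus strand), a membrane protein of the lysosome-associated family found in GABA neurons, had 6 regions. Only the region 6.41 kb inside the gene (136057576 to 136059723, overlapping a coding exon) had a peak in all 4 libraries, and it held 81.4% and 100% of the Lamp5 cut sites in cortex and 62.2% and 91.2% in hippocampus. The annotated start of Lamp5 itself lay in no peak common to the 4 libraries.

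The centres of these 3 regions are shown because the whole regions carry most or all of the signal of genes open in the same nuclei (below). Cut sites within a centre itself were not counted. A second Lamp5 promoter of the RefSeq table, which the Lamp5 region overlaps, is also shown. The centre of the Reln region at its gene start is added for contrast. Each is 300 bases of GRCm38 written 5′ to 3′ on the strand of its gene, and the first 4 lie in introns. Of the 6 genes, 4 had a RefSeq promoter in the table used. The capitals mark matches to 1 of 6 motifs searched on both strands.
Rnase10 region centre, chr14:51008294-51008593: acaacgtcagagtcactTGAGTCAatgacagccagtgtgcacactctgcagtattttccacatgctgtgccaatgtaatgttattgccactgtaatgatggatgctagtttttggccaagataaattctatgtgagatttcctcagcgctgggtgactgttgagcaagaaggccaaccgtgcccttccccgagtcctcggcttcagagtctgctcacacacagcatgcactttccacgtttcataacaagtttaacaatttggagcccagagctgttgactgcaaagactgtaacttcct
Pax4 region centre, chr6:28448006-28448305: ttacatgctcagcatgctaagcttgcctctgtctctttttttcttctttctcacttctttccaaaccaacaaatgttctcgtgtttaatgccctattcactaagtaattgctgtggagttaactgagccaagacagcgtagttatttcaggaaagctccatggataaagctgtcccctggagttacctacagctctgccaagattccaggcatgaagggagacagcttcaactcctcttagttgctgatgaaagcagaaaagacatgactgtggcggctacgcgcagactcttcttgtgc
Lamp5 region centre, chr2:136058499-136058798: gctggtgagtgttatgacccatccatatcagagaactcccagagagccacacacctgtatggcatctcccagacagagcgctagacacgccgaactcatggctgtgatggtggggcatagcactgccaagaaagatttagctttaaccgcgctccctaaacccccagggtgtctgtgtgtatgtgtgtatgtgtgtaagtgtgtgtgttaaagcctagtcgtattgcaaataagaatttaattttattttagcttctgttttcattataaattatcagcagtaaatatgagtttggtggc
Lamp5 second RefSeq promoter, chr2:136057498-136057797: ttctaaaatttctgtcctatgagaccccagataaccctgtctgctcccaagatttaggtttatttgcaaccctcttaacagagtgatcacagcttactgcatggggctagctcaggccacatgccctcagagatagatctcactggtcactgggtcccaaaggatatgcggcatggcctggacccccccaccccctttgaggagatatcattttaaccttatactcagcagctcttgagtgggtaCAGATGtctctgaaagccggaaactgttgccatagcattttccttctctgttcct
Reln region centre, chr5:22344815-22345114: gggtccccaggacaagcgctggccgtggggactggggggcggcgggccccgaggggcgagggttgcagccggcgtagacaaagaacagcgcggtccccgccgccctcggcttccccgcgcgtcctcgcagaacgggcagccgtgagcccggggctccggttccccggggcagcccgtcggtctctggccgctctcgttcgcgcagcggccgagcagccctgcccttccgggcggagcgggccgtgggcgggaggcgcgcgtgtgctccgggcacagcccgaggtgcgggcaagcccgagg
GC content was 46.7% at the Rnase10 centre, 44.3% at Lamp5 and 78.0% at Reln. The Rnase10 centre holds the AP-1 motif TGANTCA at bases 18 to 24, a motif that 11.5% of the 46698 region centres common to the 4 libraries and 7.81% of 32851 RefSeq promoters hold. The Lamp5 promoter holds the E-box CATCTG, read on the minus strand, at bases 246 to 251, as do 17.2% of promoters. The centres of Pax4, Lamp5 and Reln held none of the homeodomain motif TAATTA, the E-boxes CAGCTG and CATCTG, the nuclear receptor motif AGGTCA, the AP-1 motif and the Sox motif ACAATG. These matches are descriptions of the letters and not evidence of binding.

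The first comparison asked whether the marker genes differ in accessibility between cortex and hippocampus. Lamp5 had 18.4 and 11.1 CPM in cortex and 26.5 and 22.1 in hippocampus. Both hippocampus libraries thus lay above both cortex libraries, with means of 14.7 ± 5.17 in cortex and 24.3 ± 3.07 CPM in hippocampus (SD, n = 2). In such sums over a library, more nuclei of a type and more open DNA per nucleus cannot be told apart. The log2 fold change of hippocampus over cortex was 0.79 ± 0.40 (SE), which did not pass the threshold (adjusted p = 0.9999, edgeR quasi-likelihood test). Rnase10 went the other way, with 13.7 and 13.6 CPM in cortex and 9.33 and 11.97 in hippocampus, and its groups did not overlap either. Its log2 fold change was -0.29 ± 0.51. Thus, of the 6 genes, 1 was higher and 1 lower in both hippocampus libraries, where 10.7% and 11.1% of the 16275 genes tested were higher or lower in this way and 21.7% were either.

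The other 4 marker genes overlapped between the brain regions. Ndnf (ENSMUSG00000049001), a secreted glycoprotein used as a marker of neurogliaform cells of cortical layer 1, had 18.5 and 7.90 CPM in cortex and 10.6 and 22.8 in hippocampus. Reln (ENSMUSG00000042453), the secreted ligand of the reelin pathway, had 223 and 80.9 CPM in cortex and 225 and 130 in hippocampus. For both genes the spread between the libraries of a region exceeded the difference of the means. Id2 (ENSMUSG00000020644), a helix-loop-helix protein that binds E proteins and keeps them from DNA, had 57.1 and 48.2 CPM in cortex and 50.3 and 71.7 in hippocampus. Pax4 had 5.32 and 5.91 CPM in cortex and 7.61 and 5.84 in hippocampus. The log2 fold changes were 0.34 ± 0.59 for Ndnf, 0.28 ± 0.64 for Reln, 0.27 ± 0.25 for Id2 and 0.36 ± 1.41 for Pax4 (SE), and those of Ndnf and Reln changed sign when single libraries were left out.

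No marker gene passed the test, in which 1 of 16275 genes was called (0.00614%) and 2.18% had an unadjusted p under 0.05. None passed in DESeq2, which called 294 genes (1.72%). In simulated counts, the edgeR test found 1 of 100 genes changed 4-fold and 53 of 100 changed 16-fold. With the counts of each gene limited to common regions, it found 23 of 100 genes changed 2-fold and 100 of 100 changed 4-fold. A gene that was not called may therefore still differ. Of the partner genes, Lhx6 had 133 and 49.2 CPM in cortex and 126 and 84.7 in hippocampus (log2 fold change 0.26 ± 0.60). Adarb2 had 55.2 and 31.1 CPM in cortex and 168 and 78.7 in hippocampus, with a log2 fold change of 1.60 ± 0.56. Adarb2 did not pass in edgeR with TMM normalization factors (adjusted p = 0.9999), but passed in edgeR with library totals in place of normalization factors (adjusted p = 0.00823, 0.123% of genes called) and with nuclei counted in place of cut sites (adjusted p = 0.00183, 0.227% called). Over regions common to the 4 libraries its log2 fold change was 0.45.

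The length of open DNA moved with these values. Cortex replicate 2 had the lowest CPM at Lamp5, Ndnf, Reln, Id2, Lhx6 and Adarb2, and its peaks covered 567 bp of the Lamp5 window, against 3026 bp in cortex replicate 1 and 3732 and 2205 bp in hippocampus. Per covered kb, in contrast, cortex replicate 2 had the highest level of all 8 genes. Lamp5 had 6.07 and 19.5 CPM per covered kb in cortex and 7.09 and 10.0 in hippocampus, and Rnase10 had 10.6 and 25.8 in cortex and 11.1 and 14.2 in hippocampus. On this scale, which is the only scale here that compares genes, Id2 was the highest of the 6 in 3 of 4 libraries, at 11.4 and 41.1 CPM per covered kb in cortex and 12.1 and 21.9 in hippocampus, the exception being hippocampus replicate 1, where Pax4 had 12.2. The part of covered length in the differences between the brain regions was not tested.

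**Figure D1:**
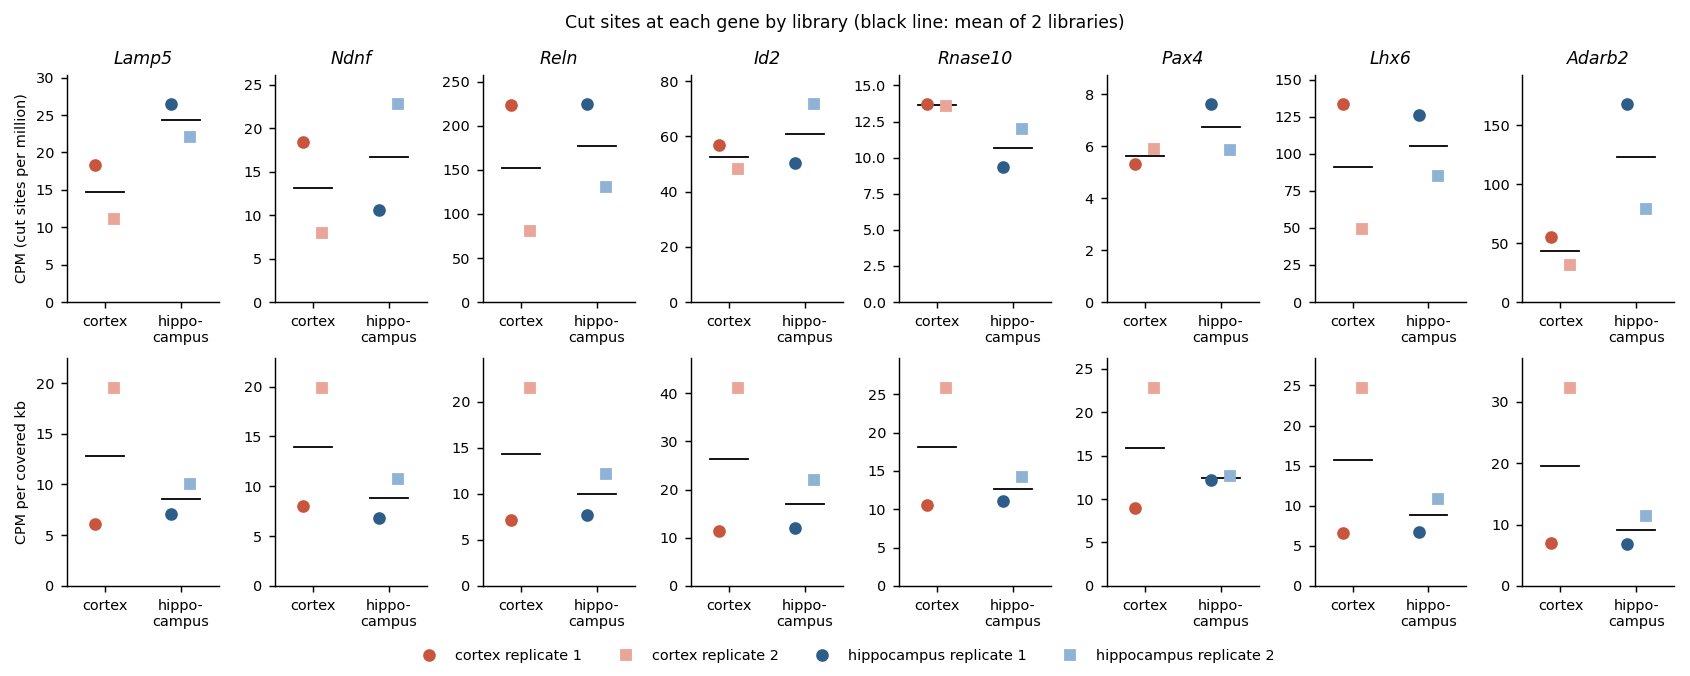
Level of the 6 marker genes and of Lhx6 and Adarb2 in each library, as CPM in the top row and CPM per covered kb in the bottom row, each axis starting at 0. Points are libraries and black lines the mean of 2 libraries. In the top row the groups are apart for Lamp5, Rnase10 and Adarb2, and in the bottom row cortex replicate 2 is the highest library for every gene.

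Regions were then compared one by one to see which part of each gene carried a difference. Of the 46698 common regions, 16 lay in the marker genes, of which 12 were higher in hippocampus and 4 in cortex. None passed in edgeR, as in the whole table (0% called, and 0.754% in DESeq2). The main Lamp5 region had 14.95 and 11.1 CPM in cortex and 16.5 and 20.2 in hippocampus, which did not overlap. As this region holds most of the Lamp5 cut sites, its values in part restate those of the gene. The share of common regions apart in this way is not given. The log2 fold change of the main Lamp5 region was 0.66 ± 0.29 (adjusted p = 0.644 by edgeR) and became -0.27 with covered length as an offset. The other 5 Lamp5 regions had a peak in part of the libraries only. Hippocampus replicate 1, with the most peaks (157220), had all 6, while cortex replicate 2, with the fewest (61965), had only the main one. As peaks were called in each library separately, a region without a peak was not measured there and is not shown to be closed.

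Reln, the longest of the 6 genes (chromosome 5, 21884454 to 22344702, minus strand), had 77 regions, of which 36 had a peak in 1 library only and 10 in all 4. Peaks were present in 58 and 12 of them in cortex and in 58 and 21 in hippocampus. The region at the gene start (22343513 to 22346417) was the highest, with 33.4 and 14.7 CPM in cortex and 17.0 and 31.2 in hippocampus, and these values overlapped. The groups were apart in an intronic region 31.5 kb from the start (22312859 to 22313608), with 5.25 and 1.22 CPM in cortex and 13.9 and 13.4 in hippocampus. Peaks covered 566 and 61 bp of that region in cortex and 750 and 629 bp in hippocampus. An intronic region 361 kb from the start (21982727 to 21983742) went the other way, with 11.8 and 16.3 CPM in cortex and 7.58 and 4.94 in hippocampus. These were the only 2 of the 16 regions with an unadjusted p under 0.05, where 8.14% of all common regions had one. Their log2 fold changes were 2.21 ± 0.78 and -0.93 ± 0.35 (adjusted p = 0.585 and 0.572 by edgeR). With covered length as an offset they were 0.72 and -0.73, and without cortex replicate 1 the first was 3.67 with an adjusted p of 0.00014 by edgeR. That fit rests on a single cortex library and calls 6.84% of all regions, 4 of the Reln regions among them. Neither region passed with all 4 libraries, so opposite directions within Reln are not shown. These 2 regions were named for their small p, and the share of common regions apart between the groups is not given.

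**Figure D2:**
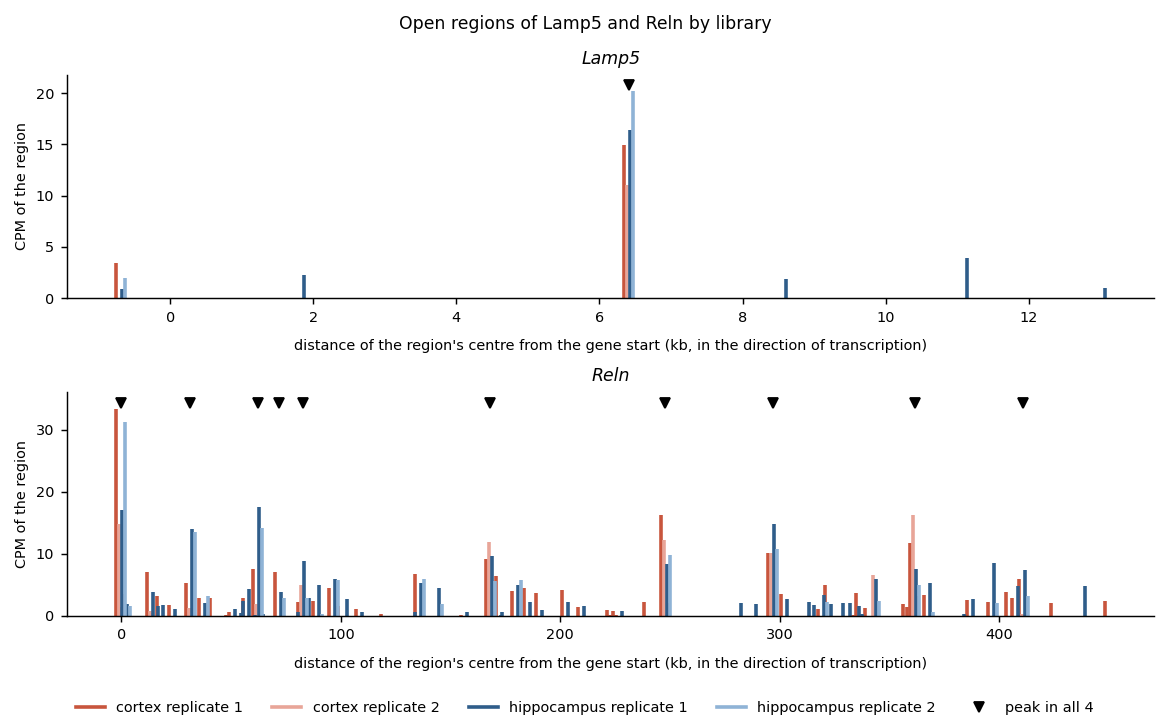
Open regions of Lamp5 (top) and Reln (bottom) in each library, placed by the distance of the region's centre from the gene start in kb, with the CPM of the region as height. Black triangles mark regions with a peak in all 4 libraries, of which Lamp5 has 1 and Reln has 10.

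The single regions of the remaining genes had small differences. At Ndnf the region spans the gene start (chromosome 6, 65670884 to 65673195) and its log2 fold change was 0.47 ± 0.57. Id2 had a region over its coding exons (chromosome 12, 25094699 to 25096881) with 32.4 and 37.2 CPM in cortex and 33.6 and 45.2 in hippocampus, and another upstream. For these 2 regions the log2 fold changes were 0.37 ± 0.22 and 0.42 ± 0.48. The Pax4 region had a log2 fold change of 0.47 ± 0.36 and the Rnase10 region one of -0.17 ± 0.25.

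Other genes of the same pathways and families were not called either. Of 14 further neurogliaform-associated genes 13 were tested, with 7 higher in hippocampus, 6 higher in cortex and a median log2 fold change of 0.04, against -0.01 over all genes tested. The genes with the smallest p were Kit, a receptor tyrosine kinase, at 53.6 and 28.3 normalised CPM in cortex and 17.7 and 19.7 in hippocampus (log2 fold change -1.13 ± 0.33), and Hapln1, a linker protein of the extracellular matrix, at 51.0 and 25.1 in cortex and 74.2 and 54.3 in hippocampus (0.75 ± 0.38). Both brain regions were apart at both genes, in opposite directions. The genes named here were picked by smallest p, and 21.7% of the 16275 genes tested were apart in CPM in either direction. In the reelin pathway, 4 of 9 genes were higher in hippocampus and 5 in cortex, among them the kinase Fyn (0.50 ± 0.36) and Pafah1b1, a regulator of dynein (-0.29 ± 0.23). Of the Id family and the E proteins that Id proteins bind, 4 of 6 were higher in hippocampus, with a median of 0.31. There, Id4 had a log2 fold change of -0.64 ± 0.26 and Id3 one of 0.68 ± 0.28, and both groups of libraries were apart. Of 8 ribonuclease A family genes only 2 were tested, Rnase4 and Ang (both 0.06), which overlap each other and share peaks. Of 8 other Pax genes 4 were tested. Pax5 had a log2 fold change of 0.31 ± 0.28, while Pax8 had no peak in either cortex library and 6.96 and 1.22 normalised CPM in hippocampus. Of the LAMP family, Lamp1 was at -0.30 ± 0.20 and Lamp2 at 0.41 ± 0.46. All adjusted p-values in these lists were 0.9999 by edgeR.

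The share of nuclei with at least 1 cut site in a gene was compared after thinning each nucleus to 2000 cut sites, which left out 0 and 206 nuclei of cortex and 131 and 14 of hippocampus. Lamp5 was open in 2.80% and 2.16% of thinned cortex nuclei and in 4.57% and 3.38% of hippocampus nuclei. The exact Clopper-Pearson 95% intervals, which cover counting error only, were 2.17 to 3.55% and 1.73 to 2.66% in cortex and 4.03 to 5.16% and 2.77 to 4.06% in hippocampus. Rnase10 was open in 2.29% and 2.18% of cortex nuclei and in 1.43% and 2.18% of hippocampus nuclei. The shares of Lamp5 were apart between the brain regions, while those of Rnase10 nearly met, with 87 of 3985 nuclei in cortex replicate 2 and 69 of 3170 in hippocampus replicate 2. How many of all genes were apart in such shares was not computed. For Lamp5 the difference was 1.49 percentage points, and for Rnase10 it was -0.43 points (exact permutation test over libraries, two-sided, p = 0.3333 each, adjusted p = 1.0 over the 6 genes). Without the nuclei whose barcode occurs in more than 1 library, the Rnase10 shares overlapped (difference -0.33 points). With 2 against 2 libraries 0.3333 is the smallest p that this test allows. Without thinning, Lamp5 was open in 32.6% and 5.01% of cortex nuclei and 16.1% and 14.8% of hippocampus nuclei, highest in the deepest and lowest in the shallowest library, and Rnase10 in 24.4%, 5.49%, 5.54% and 8.54%.

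The shares of the other genes overlapped. Reln was open in 34.3% and 12.5% of thinned cortex nuclei and 30.2% and 19.9% of hippocampus nuclei, and Id2 in 9.98%, 7.98%, 8.96% and 12.5%. Ndnf was open in 3.74%, 1.305%, 1.93% and 4.10% and Pax4 in 1.44%, 0.928%, 1.38% and 0.946%. Unthinned, the same 4 genes were open in 91.7%, 28.3%, 66.1% and 57.1% of nuclei for Reln, 65.2%, 16.9%, 26.3% and 39.0% for Id2, 32.2%, 3.48%, 7.32% and 14.98% for Ndnf, and 11.3%, 2.77%, 4.57% and 4.59% for Pax4.

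For reference, these shares were set beside those in the cluster of each library with the highest mean log2 ratio of oligodendrocyte-lineage genes. Such a cluster is not a closed background. Lhx6 was open in 2.63%, 2.48%, 9.81% and 2.45% of its thinned nuclei, against 21.4%, 7.09%, 19.4% and 14.7% of the others. Adarb2 was open in 3.95%, 0%, 16.1% and 6.73%, against 10.2%, 4.63%, 26.0% and 13.1%. The oligodendrocyte-lineage genes stood out least in cortex replicate 2 (above). Rnase10 was open in 0%, 1.65%, 0.129% and 0% of the thinned nuclei of these clusters, against 2.37%, 2.20%, 1.65% and 2.43% of all other nuclei. A count of 0 among the 76 and 327 nuclei concerned allows a share of up to 3.95% and 0.917%. Lamp5 was open in 0%, 3.31%, 1.16% and 0.917% against 2.90%, 2.12%, 5.14% and 3.66%. Ndnf was open in 6.58%, 4.13%, 2.71% and 3.67% against 3.64%, 1.22%, 1.80% and 4.15%, and so lay above the other nuclei in 3 of 4 libraries, as Lamp5 did in cortex replicate 2. Id2 was open in 5.26%, 7.44%, 6.45% and 6.12% against 10.1%, 7.997%, 9.38% and 13.2%, and Reln in 5.26%, 4.13%, 19.5% and 8.87% against 35.2%, 12.8%, 31.9% and 21.2%. Pax4 was open in 0%, 0%, 0.645% and 0% against 1.49%, 0.958%, 1.50% and 1.06%. Reln was thus lower in these clusters in 4 of 4 libraries. So was Id2, but in cortex replicate 2 its share rested on 9 of 121 nuclei and nearly met that of the others. For Pax4, the counts of 0 among 76 and 121 cortex nuclei allow up to 3.95% and 2.48%. These limits lie above the other nuclei, so a lower Pax4 share is not shown in cortex. Nothing is read from a share at or below that of these clusters, as for Ndnf. Median depth was lower in these clusters, at 21983.5, 3181, 4145 and 8747 cut sites, than in the other nuclei, at 48096, 7497, 13657 and 15882.

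The next question was which of the genes were open in the same nuclei. Within each library, values per nucleus (log of 1 plus cut sites per 10000) were centred in 10 strata of depth and correlated over the nuclei of the library, for 15 pairs of marker genes. These are descriptions without a test, since the nuclei of a library share its preparation, and values were sparse. Rnase10 with Pax4 had the highest mean over libraries, with r = 0.208 and 0.103 in cortex and 0.0779 and 0.144 in hippocampus. As both genes were chosen by their values in these nuclei, this pair restates that choice in part and supports nothing. In hippocampus replicate 1 it came after Lamp5 with Pax4 and Lamp5 with Id2. Both genes were open in 126, 20, 43 and 39 nuclei, where the depth strata alone gave 74.9, 7.66, 16.5 and 14.9, that is 1.68, 2.61, 2.61 and 2.62 times as many. With each nucleus thinned to 2000 cut sites the mean over libraries fell from 0.133 to 0.0296, below that of Lamp5 with Rnase10 (0.0320).

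Lamp5 was open together with the same genes. Its correlation was 0.0822, 0.0304, 0.130 and 0.0865 with Pax4 and 0.0987, 0.0309, 0.0584 and 0.0693 with Rnase10. The joint count of Lamp5 with Pax4 was 1.27, 1.17, 1.96 and 1.70 times that given by depth, and that of Lamp5 with Rnase10 1.12, 1.38, 1.45 and 1.44 times. Id2 was positive in 4 of 4 libraries with Pax4 (r = 0.0227 to 0.0740), Rnase10 (mean 0.0451) and Lamp5 (mean 0.0447). The 6 pairs among Lamp5, Id2, Rnase10 and Pax4 were thus positive in every library at full depth. Thinned to 2000 cut sites, 3 of these 6 pairs were positive in 4 of 4 libraries, which were Lamp5 with Rnase10 (mean 0.0320), Rnase10 with Pax4 (0.0296) and Id2 with Pax4 (0.0176). Id2 with Rnase10 (0.0275) and Lamp5 with Id2 (0.0149) were then positive in 3 of 4, and Lamp5 with Pax4 (0.0200) in 2 of 4, both of hippocampus.

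Ndnf was also positive with Lamp5, Id2, Rnase10 and Pax4 in 4 of 4 libraries at full depth, but at lower values, with mean r of 0.0159, 0.0233, 0.0161 and 0.0253. After thinning, these means were -0.0002, -0.0005, 0.0074 and -0.0090, and none of the 4 pairs had the same sign in all libraries. Reln with Id2 was negative in 4 of 4 libraries (-0.0458, -0.0311, -0.0095 and -0.0136), and in 3 of 4 after thinning. Reln with Lamp5, Ndnf or Pax4 was positive in 3 of 4 libraries and with Rnase10 in 2 of 4. In all, 11 of the 15 pairs had the same sign in 4 of 4 libraries, a number that was 4 with thinned nuclei. No such count over all pairs of genes is given, so nothing is read from these numbers. Some positive values were ordinary: Lamp5 with Ndnf in hippocampus replicate 1 (r = 0.0048) exceeded 63.2% of the 13191 genes compared with Lamp5. By the same measure, Lamp5 with Pax4 exceeded 99.5% and 96.5% in cortex and 99.99% and 99.9% in hippocampus.

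Of the 6 genes, only Reln was positive with Lhx6 in 4 of 4 libraries. It had r = 0.105, 0.0344, 0.0531 and 0.0574 (mean 0.0332 thinned, again positive in 4 of 4). Rnase10 with Lhx6 was negative in 4 of 4 (-0.137, -0.0360, -0.0177 and -0.0139; mean -0.0175 thinned), as was Ndnf with Lhx6 (-0.0268, -0.0085, -0.0333 and -0.0144; mean -0.0243 thinned). The number of nuclei open at both Rnase10 and Lhx6 was 0.957 and 0.814 times that given by depth in cortex and 0.922 and 0.960 times in hippocampus. Lamp5 with Lhx6 was negative in cortex (-0.0510 and -0.0001) and positive in hippocampus (0.0361 and 0.0091), and Pax4 with Lhx6 had -0.118 and -0.0160 in cortex and 0.0175 and 0.0375 in hippocampus, so that in hippocampus both shared the sign of Reln. Id2 with Lhx6 had -0.137, -0.0577, -0.0062 and 0.0077. By rank, Lhx6 exceeded 96.9%, 96.3%, 99.4% and 98.4% of the 13191 genes compared with Reln. It exceeded 0.0227% and 1.33% of those compared with Rnase10 in cortex, but 14.9% and 28.2% in hippocampus. Of those compared with Ndnf it exceeded 11.5%, 28.4%, 0.334% and 20.6%, so some negative values were ordinary. The share of all genes with the same sign in 4 of 4 libraries is not given for Lhx6 or Adarb2, so nothing is read from such counts. With Adarb2, Reln had -0.0401 and -0.0264 in cortex and 0.0137 and -0.0026 in hippocampus. In contrast, the correlations of Pax4, Rnase10, Lamp5 and Id2 with Adarb2 were positive in 4 of 4 libraries, with means of 0.0646, 0.0608, 0.0480 and 0.0472. Thinned, these means were -0.0031, -0.0035, 0.0092 and 0.0079. Only Id2 with Adarb2 was then positive in 4 of 4 libraries, while Pax4, Rnase10 and Lamp5 were each positive in 2 of 4. As a scale for these values, Lhx6 with Adarb2 had r = -0.233, -0.0293, -0.130 and -0.0875.

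**Figure D3:**
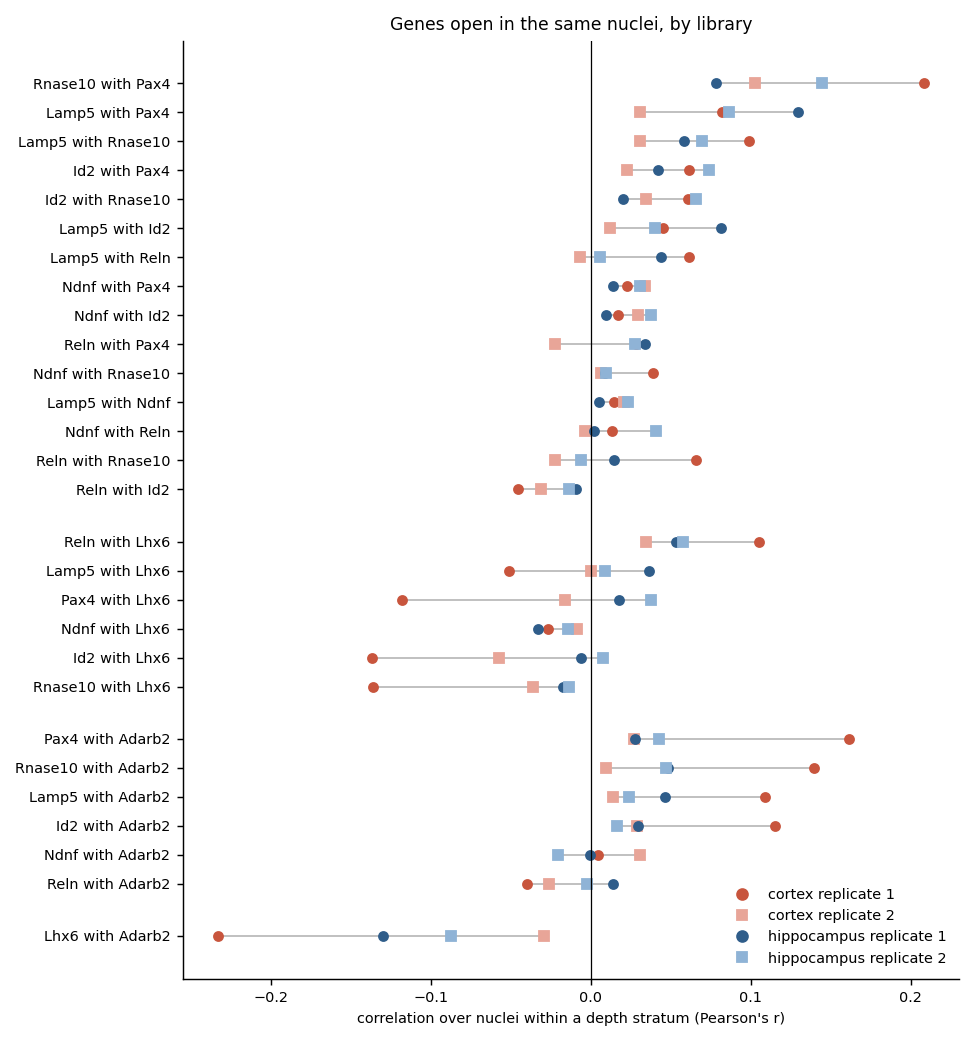
Correlation (Pearson's r) over nuclei within depth strata for each pair of genes, one point per library, for pairs of marker genes (top), marker genes with Lhx6 and with Adarb2 (middle) and Lhx6 with Adarb2 (bottom). Rnase10 with Pax4 lies highest in every library but hippocampus replicate 1, where Lamp5 with Pax4 does, and cortex replicate 1, the deepest library, gives most of the extreme values.

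Looking over all genes more than 500 kb away, the 3 genes most alike to each marker were ranked by the lowest of the 4 correlations. For Pax4 the list held Rnase10 (lowest r 0.0779), which was chosen from the same nuclei, Igsf11 (0.0774), a cell adhesion molecule, and Eefsec (0.0756), an elongation factor for selenoproteins. For Rnase10 they were Igsf11 (0.0709), Rgs6 (0.0646), a regulator of G protein signalling, and Rapgef4 (0.0626), an exchange factor activated by cyclic AMP. Igsf11 thus stood in both lists. Reln was most like Trpc6 (0.0676), a cation channel, Cacna2d3 (0.0659), a calcium channel subunit, and Lama4 (0.0653), a laminin chain. The values were lower for the other genes: Klhdc1 (0.0396), Ndst3 (0.0391) and Kirrel (0.0381) for Lamp5, Sh3rf2 (0.0453), Slc28a3 (0.0425) and Slc2a13 (0.0379) for Id2, and Gpr37 (0.0327), Pex5l (0.0290) and Epb41l4b (0.0263) for Ndnf.

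To see how the marker genes vary among groups of nuclei, the nuclei of each library were clustered without any peak within 50 kb of the 8 genes, so that none of them shaped the clusters. This gave 18 and 15 clusters of at least 30 nuclei in cortex and 20 and 21 in hippocampus. Clusters are given by number and leading genes, and choosing the highest of many clusters makes its ratio a description without a test. Rnase10 was concentrated in few clusters. Its highest cluster had 65.3 and 61.5 CPM in cortex and 50.7 and 50.3 in hippocampus (exact Poisson 95% intervals 59.3 to 71.8, 52.3 to 71.9, 43.1 to 59.3 and 41.6 to 60.2). That is 6.15, 6.56, 6.77 and 5.02 times the rest of the library, while the median cluster had 10.5, 9.77, 5.16 and 5.39 CPM. Pax4 was highest in the same cluster in 3 of 4 libraries, at 25.8, 32.3 and 38.0 CPM, and in hippocampus replicate 2 in another cluster at 25.4 CPM. The ratios for Pax4 were 6.28, 8.97, 6.08 and 6.11.

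Lamp5 varied less over clusters, its highest being at 2.40, 2.53, 3.59 and 2.79 times the rest, and Id2 at 1.86, 2.15, 1.97 and 1.63 times. Reln was highest at 1.92, 2.57, 1.79 and 1.66 times the rest, in clusters that in 3 of 4 libraries differed from the one highest in Rnase10. In cortex replicate 2 the Reln cluster was led by Olfr275, Pappa2, Bpifb1, Kiss1 and Sst, the last a neuropeptide of medial-lineage interneurons. Ndnf was highest in cluster 17 of cortex replicate 1, at 44.2 CPM or 2.46 times the rest, with Slc34a2, Lman1l, Cxcl14, Agtr1a and Serpinb5 leading. In cortex replicate 2 and hippocampus replicate 1 the highest Ndnf value rested on 12 and 8 cut sites, in clusters led by Cd9 and by Cdrt4, Gpr17 and Olig2, the last 2 genes of the oligodendrocyte lineage. In hippocampus replicate 2 it was 32.0 CPM, 1.44 times the rest, in a cluster led by Cxcl14.

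Taking the clusters with Rnase10 at 2 or more times the rest of the library, a limit set after the values were seen, gave 2 and 1 clusters in cortex and 3 and 3 in hippocampus. The cluster just inside this limit was cluster 17 of cortex replicate 1, at 2.27 times, and the cluster just outside was cluster 8 of cortex replicate 2, at 1.27 times. In cortex, all 3 had Lhx6 well below the rest of their library. Cluster 5 of cortex replicate 1 (146 nuclei, led by Rnase10, Olfr1383, Lyg1, BC048562 and Pax4) had 45.6 CPM of Lhx6, 0.329 times the rest, and 126 CPM of Adarb2, 2.48 times the rest. Cluster 17 there (52 nuclei) had Lhx6 at 0.421 and Adarb2 at 2.16 times the rest. Cluster 3 of cortex replicate 2 (367 nuclei, led by Myh1, Pax4, Apol6, Rnase10 and Npy) had Lhx6 at 0.283 and Adarb2 at 2.36 times. Lamp5 in these 3 clusters was 2.27, 2.40 and 2.53 times the rest.

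In hippocampus the Rnase10-high clusters were of 2 kinds. Cluster 9 of hippocampus replicate 1 (280 nuclei, led by Myh1, Rnase10, Pax4, Fetub and Myoc) had Lhx6 at 0.365 and Adarb2 at 1.75 times the rest, and cluster 9 of hippocampus replicate 2 (153 nuclei, led by Myh1, Scrg1, Slc5a4b, Col4a4 and Rnase10) had 0.272 and 1.63 times. Beside these, clusters 3 and 8 of hippocampus replicate 1 (409 and 296 nuclei) had Lhx6 at 168 and 163 CPM, 1.37 and 1.31 times the rest, with Rnase10 at 3.89 and 3.45 times. Clusters 5 and 6 of hippocampus replicate 2 (251 and 170 nuclei) had Lhx6 at 132 and 156 CPM, 1.64 and 1.93 times the rest, with Rnase10 at 3.56 and 3.95 times. Lamp5 in these 4 clusters was 2.55, 3.59, 2.13 and 2.63 times the rest and Adarb2 between 0.983 and 1.151 times. Rnase10 and Lamp5 were thus high in hippocampus clusters both with low and with high Lhx6, and in cortex in clusters with low Lhx6.

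As shares of nuclei, Rnase10-high clusters with Lhx6 below the rest held 8.41% and 8.76% of cortex nuclei (Clopper-Pearson 95% intervals 7.32 to 9.60% and 7.92 to 9.65%) and 5.02% and 4.81% of hippocampus nuclei (4.46 to 5.63% and 4.09 to 5.61%). Those with Lhx6 at or above the rest held 0 of 2355 and 0 of 4191 cortex nuclei and 12.6% and 13.2% of hippocampus nuclei (11.8 to 13.5% and 12.1 to 14.4%). Clusters under 30 nuclei were not counted, so that a smaller group would not be seen, and 24 nuclei of cortex replicate 1 lay in a smaller cluster, so no upper bound is given for the counts of 0. No test is given, as the limit was set with these values in view, and sorting, dissection and depth can set such shares and were not tested. At Leiden resolutions of 0.5 and 2, with 20 components or with limits of 1.5 and 3 times, the share with Lhx6 at or above the rest was 0% in both cortex libraries and ranged from 11.4 to 12.7% and from 12.8 to 13.6% in hippocampus. The share with Lhx6 below the rest ranged from 6.1996 to 8.45% and from 8.76 to 11.4% in cortex and from 5.02 to 6.58% and from 4.81 to 5.09% in hippocampus, so that the lowest cortex value, at a limit of 3, lay below the highest of hippocampus replicate 1.

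**Figure D4:**
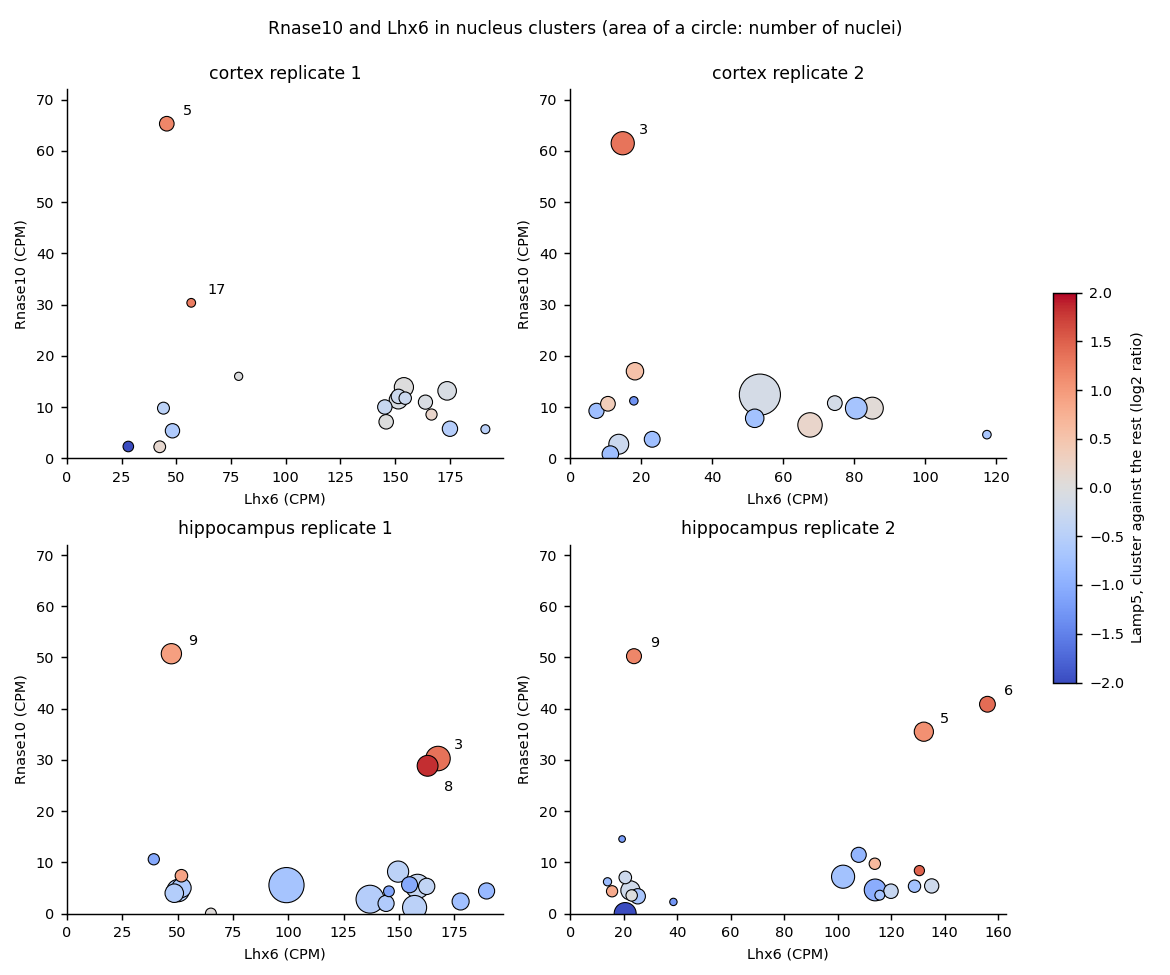
Rnase10 against Lhx6 (both in CPM) in each nucleus cluster, one panel per library, with the area of a circle proportional to the nuclei of the cluster and its colour the log2 ratio of Lamp5 over the rest of the library. Numbers mark the 9 clusters with Rnase10 at 2 or more times the rest: in cortex all 3 lie at low Lhx6, while in each hippocampus library 1 lies at low and 2 at high Lhx6, and all 9 have Lamp5 above the rest.

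Marker lists described these clusters further, the medial list including Lhx6 itself and the caudal list Adarb2. Apart from Lhx6 and Adarb2, the listed genes were not left out of the clustering, so their peaks could shape the clusters that they describe. In the 5 clusters with low Lhx6, between 4 and 5 of the 8 caudal-lineage genes were higher by at least 0.2 on the log2 scale, and 0 or 1 of the 8 medial-lineage genes. In the 4 hippocampus clusters with high Lhx6, between 1 and 3 of the 8 medial-lineage genes were higher and 4 or 5 were lower, and 0 or 1 of the 8 caudal-lineage genes was higher, so that high Lhx6 was not accompanied by the medial list as a whole. No more than 2 of the 9 oligodendrocyte-lineage genes were higher in any of the 9 clusters, and none of the 5 microglial genes. Of the 14 further neurogliaform-associated genes, 8 were above the rest by any amount in the Rnase10-highest cluster of all 4 libraries. The same held for 17.7% of 14735 protein-coding genes, which are those with a cut site outside that cluster in every library. Pax6 had none there in cortex replicate 2 or either hippocampus library, so the counts are not over like sets. The cluster was also picked by Rnase10, a gene chosen from these nuclei. Among the 8 were Npy, the neuropeptide Y gene, at 3.85, 5.32, 1.92 and 1.82 times the rest, and Cplx3, a complexin of the release machinery, at 4.20, 2.75, 2.07 and 2.49 times. Nos1, the neuronal nitric oxide synthase, was at 1.66, 1.61, 1.54 and 1.47 times. Kit was at 3.80, 1.54, 3.58 and 2.65 times. The others were Lsp1, Gabrd, Hapln1 and Pdlim5, the last at only 1.05 to 1.13 times, and Ntn1 was lower than the rest in all 4 (0.419 to 0.810 times). In cluster 8 of hippocampus replicate 1 and cluster 5 of hippocampus replicate 2, which had high Lhx6 and high Rnase10 and were the highest of their library in Lamp5 and in Pax4, respectively, Npy was at 1.72 and 1.97 times, Cplx3 at 2.53 and 2.29 times and Nos1 at 1.97 and 2.28 times, whereas Kit was at 0.887 and 1.38 times. Of the rest of the list, Hapln1, Krt73 and Lsp1 were above the rest in both clusters. Cxcl14 (0.185 and 0.468 times) and Ntn1 (0.925 and 0.636 times) were below it in both. Sv2c, Egln3, Pdlim5 and Gabrd were above it in 1 cluster only, and Pax6 had no cut site there. No share over all genes is given for these clusters. Cluster 17 of hippocampus replicate 2, which led in Lamp5 with high Lhx6 but without high Rnase10, had Npy at 0.698, Cplx3 at 1.0302 and Nos1 at 1.146 times.

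Lamp5 was also high in clusters where Rnase10 was not. Cluster 17 of hippocampus replicate 1 (107 nuclei, led by Olfr944 and Htr3b, a serotonin receptor subunit of caudal-lineage interneurons) had 48.6 CPM of Lamp5, 1.87 times the rest, with Rnase10 at 0.788, Lhx6 at 0.406 and Adarb2 at 2.02 times. In hippocampus replicate 2, clusters 15, 16 and 17 (88, 86 and 71 nuclei) had 34.0, 38.3 and 59.9 CPM of Lamp5, on 49, 44 and 50 cut sites, with Rnase10 at 0.807, 0.358 and 0.697 times the rest. Cluster 16 was led by Klrb1a and Htr3b, with Adarb2 at 2.05 and Lhx6 at 0.181 times, whereas clusters 15 and 17 had Lhx6 at 1.36 and 1.56 times and Adarb2 at 0.870 and 0.896 times. The highest Lamp5 cluster of that library, cluster 17, thus had Lhx6 above and Rnase10 below the rest, with Pax4 at 2.53 times. In cortex replicate 2, cluster 8 (207 nuclei, led by Lvrn, C8a and Cxcl14) had Lamp5 at 1.45 and Id2 at 2.15 times the rest, with Rnase10 at 1.27 times. These clusters were singled out after their values were seen.

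**Figure D5:**
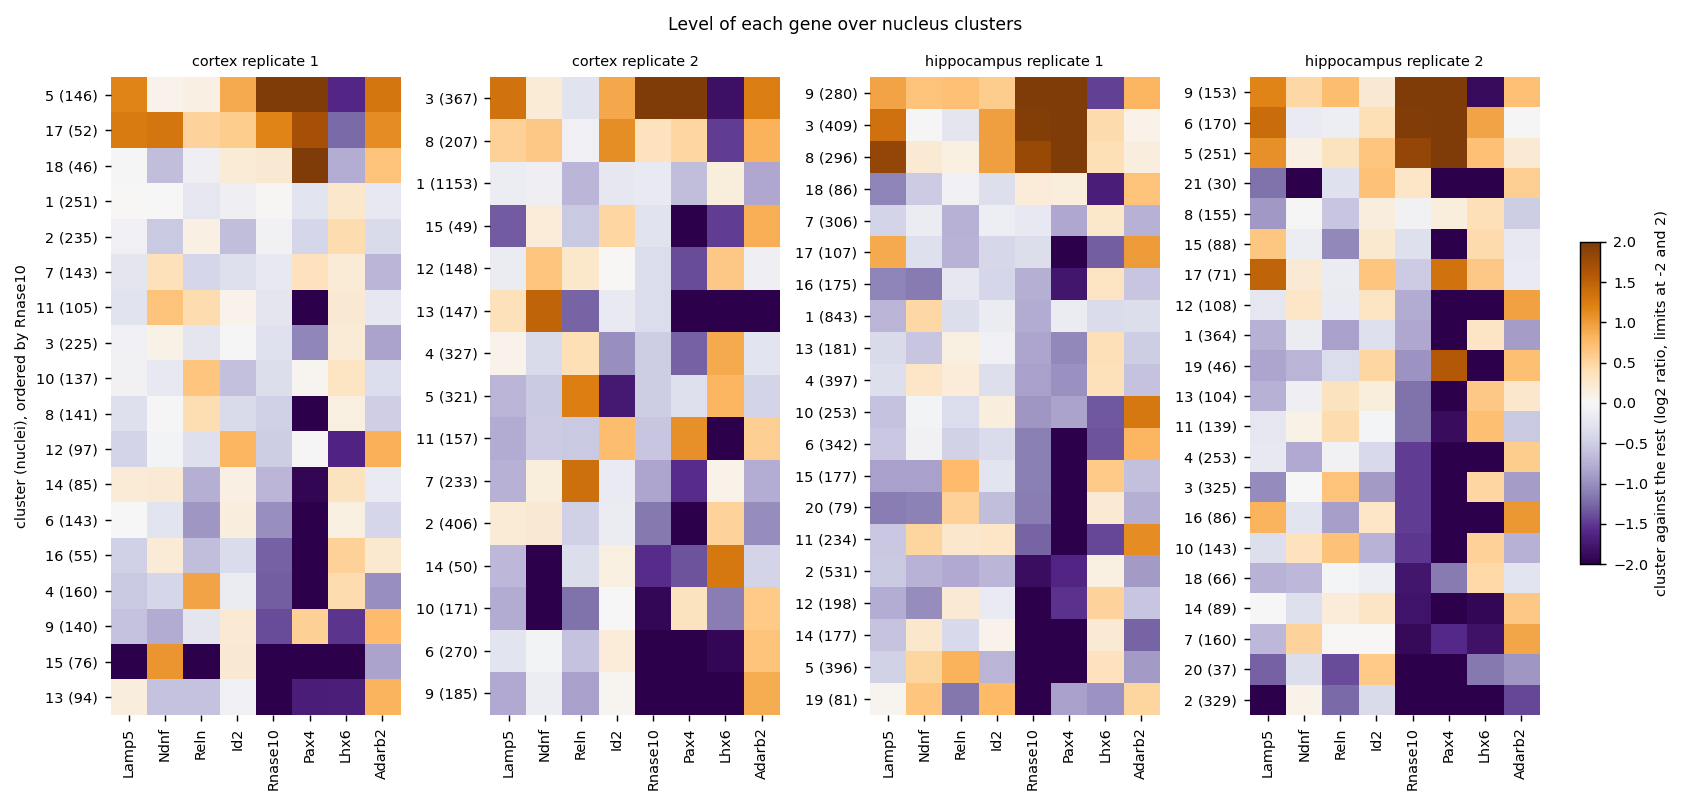
Level of the 8 genes in each nucleus cluster as the log2 ratio over the rest of the library, one panel per library, with clusters ordered by Rnase10 and the number of nuclei in brackets. Colours are limited to ratios between -2 and 2. At the top of each panel Rnase10, Pax4, Lamp5 and Id2 are all above the rest, while Ndnf and Reln vary in other clusters too.

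Over the clusters of a library, Spearman's rho between Rnase10 and Pax4 ranged from 0.39 to 0.65, between Lamp5 and Rnase10 from 0.34 to 0.56, between Reln and Lhx6 from 0.29 to 0.60, and between Id2 and Adarb2 from 0.41 to 0.73. Reln with Id2 was negative in 4 of 4 libraries, at -0.31 to -0.08. Rnase10 with Lhx6 was positive in 3 of 4 libraries over clusters (-0.08 to 0.28), unlike over nuclei, and Lamp5 with Ndnf in 4 of 4 (0.07 to 0.55). Each rho is over the 15 to 21 clusters of 1 library, which share its nuclei and depth, and is given as a description.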

How the data were processed

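The libraries were single-nucleus assays of transposase-accessible chromatin. Per the labels and the submitters' processing notes, the authors used Cell Ranger ATAC 1.2.0 with GRCm38 and deposited, for each library, counts of cut sites per peak and nucleus, with peaks called in each library separately and no normalization. Groups came from the region given in the labels. The paper linked to the series does not describe these libraries. Members and lists were chosen with earlier results of these data known.

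Counts in peaks overlapping a window by at least 1 bp were summed over the gene body and 2 kb upstream (GENCODE M21, autosomes and X) and over all nuclei of a library. The deposited coordinates were checked against the build: gene starts lay in peaks for 49.0 to 58.5% of genes, against 2.47 to 6.73% after shifting them. CPM used library totals, except that values called normalised CPM used edgeR's normalization factors. Brain regions were compared with edgeR 4.0.16 (quasi-likelihood test, TMM factors, Benjamini-Hochberg over all genes or regions tested, threshold 0.05) in R 4.3.3, and DESeq2 1.42.0 was an alternative. Scripts were tested on simulated data. Intervals cover counting error only.

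Clusters were made per library with TF-IDF weights of peaks open in at least 1% of nuclei, 40 components without those correlated 0.5 or more with log depth, 20 nearest neighbours and Leiden resolution 1 (leidenalg 0.10.2). Leading genes had at least 20 CPM and the highest ratio over the rest. No doublet caller was run. Named were all 6 genes and both partners, the 3 genes most alike to each, the highest common region per gene with any Reln region of unadjusted p under 0.05 added after its values were seen, the 2 genes of smallest p per list, and the highest cluster per gene. Sequences and promoters came from the GRCm38 reference and RefSeq. Alternatives covered normalization, filters, regions, thinning, depth strata, clustering settings and left-out libraries.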

Additional observations from a re-analysis of the deposited data

Results flagged for a closer look

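For 3 pairs of genes, all libraries of one brain region had a correlation over nuclei of one sign and all libraries of the other region the opposite sign. These differences were not tested, and values this close to 0 in sparse counts are given as values only. Lamp5 with Lhx6 had r = -0.0510 and -0.0001 in cortex and 0.0361 and 0.0091 in hippocampus, so that the mean was 0.0482 higher in hippocampus. Pax4 with Lhx6 had -0.1179 and -0.0160 in cortex and 0.0175 and 0.0375 in hippocampus, a difference of 0.0945. Ndnf with Adarb2 had 0.0047 and 0.0306 in cortex and -0.0008 and -0.0208 in hippocampus, a difference of -0.0284. With nuclei thinned to 2000 cut sites, none of the 3 pairs kept this pattern.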

How the results depend on the processing

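The number of genes called, 1 in edgeR with TMM factors, was 0 over common regions, 2 in a window around the gene start, 294 in DESeq2, 20 with library totals, 37 with nuclei counted, and 0 to 401 when single libraries were left out (401 without cortex replicate 1 and 25 without cortex replicate 2). For regions it was 0 with TMM factors, 352 in DESeq2 and 0 to 3193 with single libraries left out (3193 without cortex replicate 1 and 855 without cortex replicate 2). Fits without a library leave 1 library in an arm, which is assumed to vary like the others. The replicate block called 0 genes and 0 regions. Same-numbered libraries deviated together only weakly (correlation 0.168, 2 pairs) and share only a number.

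Left-out libraries turned the log2 fold change of Ndnf (-0.18 to 1.23), Reln (-0.29 to 1.35) and Lhx6 (-0.31 to 1.31), and of the main regions of Ndnf (-0.0648 to 1.27) and Reln (-0.38 to 0.91). Covered length as an offset, added after seeing the data, was applied to the main region of each gene. The log2 fold changes were then -0.27 for Lamp5, -0.44 for Ndnf, -0.59 for Reln, -0.0494 for Id2 and -0.11 for Pax4. Lhx6 was at -0.75 and Adarb2 at -0.40. Rnase10 was at -0.30, against -0.17 without the offset. Unthinned, the shares differed by -3.36 points for Lamp5, -6.71 for Ndnf and -8.41 for Id2. For Pax4 the share differed by -0.0242 points, and by 0.215 when thinned to 1000, 0.140 when thinned to 5000 and 0.351 over common regions.

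Of 15 marker pairs, 11 had 1 sign in all libraries, and 4 with thinned nuclei. Of 12 pairs with Lhx6 or Adarb2, 7 did, and 4 in the start window and 4 with thinned nuclei. The same counts over all pairs of genes are not given. The mean for Rnase10 with Pax4 was 0.0296 thinned. Thinning cuts the counts per nucleus, and the cause of the other changes was not tested. Depth differed most between the cortex libraries, and with 2 libraries per region its part was not tested.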
